A study of Danio rerio with 6 samples.

Results

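The mitochondrial ribosomal protein genes of zebrafish were compared between *tdp1-/-* and *tdp1WT* embryos that had all been treated with camptothecin (CPT), the poison that traps topoisomerase 1 on DNA. A gene was included where a transcript cluster of the array (the set of probes for one transcribed locus) was annotated with exactly 1 symbol and that symbol began with *mrpl*, for the large subunit, or *mrps*, for the small subunit, followed by a digit. For a gene with several clusters, the cluster with the highest mean log2 signal over the arrays was kept. This gave 67 genes, 43 of the large and 24 of the small subunit, of 19260 genes with 1 symbol and 75212 transcript clusters in all. A further 8 clusters naming such a symbol beside another gene were not used. The experiment had 6 arrays, 3 of *tdp1-/-* embryos and 3 of *tdp1WT* embryos, each of total RNA from whole embryos at 5 days post-fertilization (dpf) after 16 h in 500 nM CPT. The *tdp1-/-* fish carried frameshift deletions made with CRISPR-Cas9, SH475 on both copies or SH475 over SH476, and the labels do not say which combination went onto each array. Arrays of each genotype are numbered 1 to 3 by biological replicate, the study describes biologically independent experiments, and same-numbered arrays deviated together, so a number shared by the genotypes is called an experiment here. Both genotypes received CPT and arrays of untreated embryos were not analysed here, so the values describe genotype under CPT and not the response to CPT. RNA from whole embryos mixes all cell types, so fewer cells of a type and less RNA per cell cannot be told apart.

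Mitochondrial ribosomes make the few proteins that the mitochondrial genome encodes, all of them subunits of the oxidative phosphorylation complexes or ATP synthase. Their RNAs come from mitochondrial DNA, whereas every protein of both subunits is encoded in the nucleus, made in the cytosol and imported. Many of these proteins descend from bacterial ribosomal proteins, and others were added in the mitochondrial lineage. The large subunit joins amino acids and holds the exit tunnel of the new protein, and the small subunit reads the mRNA.

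The targeted gene was checked first. *tdp1*, which encodes the phosphodiesterase that releases trapped topoisomerase 1, had log2 signals of 5.18, 5.17 and 5.24 in *tdp1-/-* embryos and 5.59, 5.34 and 5.85 in *tdp1WT* embryos. All *tdp1-/-* arrays lay below all *tdp1WT* arrays, with a log2 fold change of -0.40 (95% interval -0.79 to -0.01, exact permutation p = 0.1, the smallest that 3 arrays against 3 allow). The small deletions leave most of the transcript's sequence, so this level is an indirect check of the genotype. Array medians lay between 4.66 and 4.87 log2 units, and correlations between arrays between 0.969 and 0.988. Of 5 listed markers each, 5 were measured for skeletal muscle, neurons and lens, 4 for exocrine pancreas and heart, 3 for erythrocytes and 2 for liver, with mean log2 signals from 4.65 to 12.07.

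None of the 67 mitochondrial ribosomal protein genes passed the test between *tdp1-/-* and *tdp1WT* embryos. A gene was called where limma's moderated test gave an unadjusted p under 0.05 and the fold change exceeded 1.2. By this rule 0 of 67 were lower and 0 were higher in *tdp1-/-* embryos, and 0 had an unadjusted p under 0.05 at any fold. Over all genes with 1 symbol the same rule called 1.04% lower and 0.852% higher, and over all clusters 1.29% lower and 2.28% higher. With the experiment as a block, 0 of 67 were called again, where 2.49% of genes were called lower and 1.55% higher. After Benjamini-Hochberg adjustment over all clusters the limma adjusted p was 1 for every member without the block and at least 0.78 with it. No cluster of the whole array passed an adjusted p of 0.05, the lowest being 0.0608.

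The intervals show how large a difference the arrays could have missed. The 95% interval of the fold change lay wholly within 1.5-fold in either direction for 58 of the 67 genes, against 12733 of all 19260 genes. The exceptions were *mrpl2*, *mrpl16*, *mrpl34*, *mrpl37*, *mrpl53*, *mrpl57*, *mrps6*, *mrps18b* and *mrps33*. It lay within 2-fold for 66, all except *mrpl53* (-1.03 to 0.38 log2 units). For 0 of 67 did it lie within 1.2-fold, since the narrowest interval reached 0.30 log2 units to either side, more than the 0.26 of a 1.2-fold change. Differences of the size of the call rule were thus not excluded for any single gene. The share over all genes includes dimmer genes, with mean log2 signals from 1.36, against 4.46 for members. The median SD within a genotype was 0.17 for members and 0.19 for all genes.

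**Figure D1:**
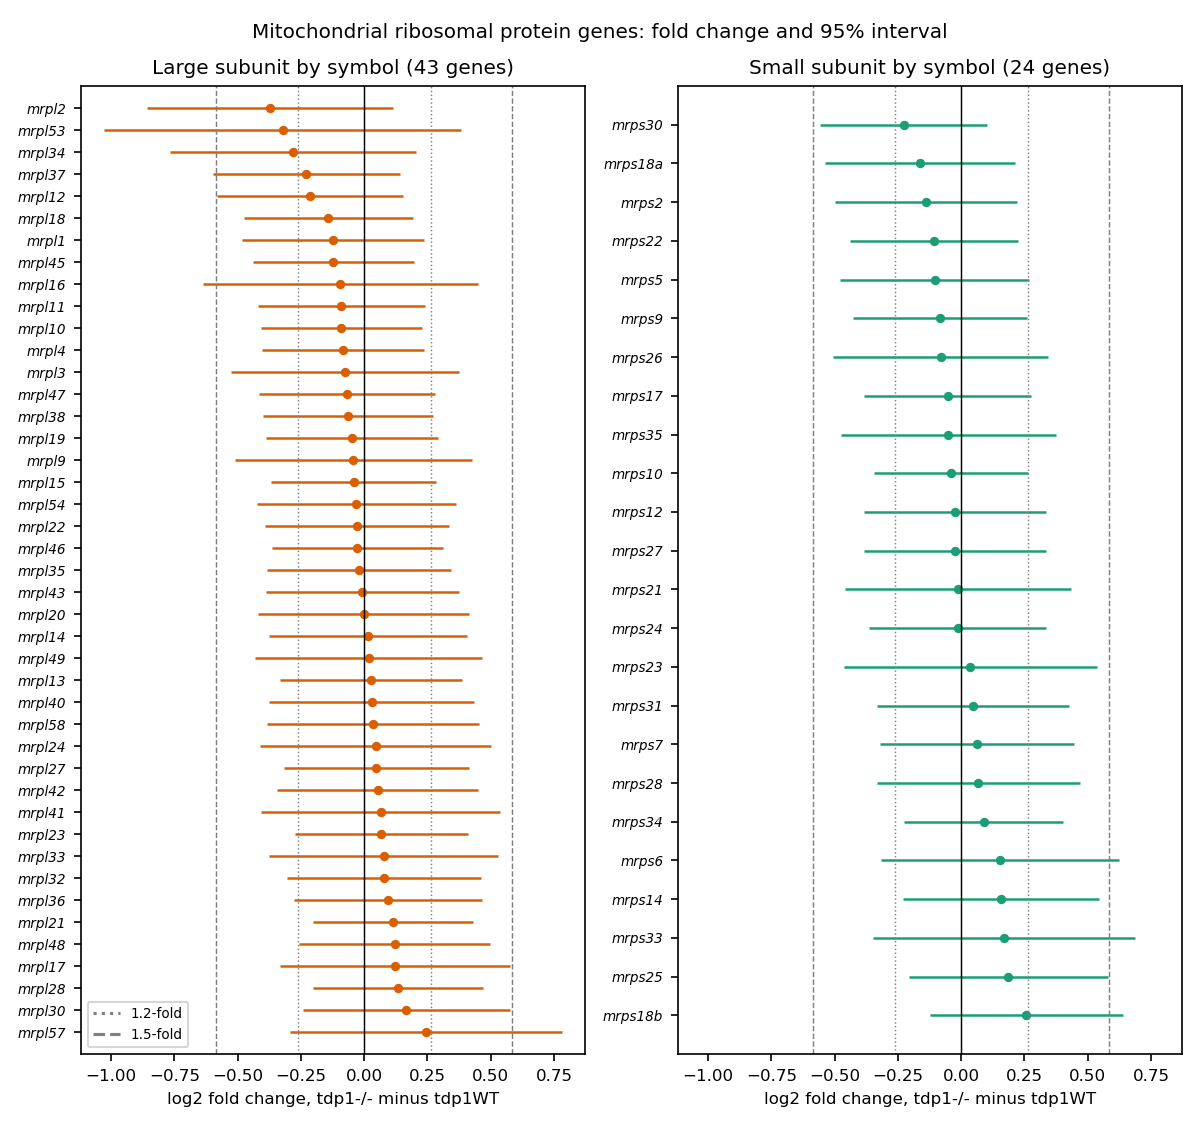
Log2 fold change (*tdp1-/-* minus *tdp1WT*, x axis) of each of the 43 large subunit genes (left) and 24 small subunit genes (right), ordered from the most negative at the top. Points are limma estimates from 3 arrays per genotype, bars are 95% intervals, and grey lines mark 1.2-fold (dotted) and 1.5-fold (dashed). Every interval includes 0.

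In the large subunit, log2 fold changes ran from -0.37 to 0.24, with 24 of 43 genes below 0. The most negative was *mrpl2*, homolog of the bacterial protein L2 that lies close to the peptidyl transferase centre. Its log2 signal was 7.97, 8.37 and 7.65 in *tdp1-/-* embryos and 8.46, 8.45 and 8.19 in *tdp1WT* embryos. Replicate 2 of *tdp1-/-* overlapped with the *tdp1WT* arrays and the other two lay below them. The means were 7.99 ± 0.36 in *tdp1-/-* and 8.37 ± 0.152 in *tdp1WT* embryos (SD, n = 3 each), a log2 fold change of -0.37 (95% interval -0.86 to 0.11, exact permutation p = 0.2). *mrpl2* was lower in all 3 experiments, by -0.49, -0.08 and -0.54 log2 units. Its call depended on 1 array: without *tdp1-/-* replicate 2 the fold change was -0.56 and passed the rule, the only call that leaving out an array gave among the 67 genes, and without *tdp1-/-* replicate 3 it was -0.20.

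The next most negative were *mrpl53*, a protein of the mitochondrial lineage, and *mrpl34*, a homolog of bacterial L34. *mrpl53* had log2 signals of 5.13, 4.35 and 4.69 in *tdp1-/-* embryos and 4.55, 5.58 and 5.01 in *tdp1WT* embryos. The experiments did not run the same way, since it was higher in *tdp1-/-* in experiment 1 by 0.58 and lower in experiment 2 by -1.23 log2 units. The difference of -0.32 was smaller than the spread of the *tdp1WT* arrays alone (SD 0.518, exact permutation p = 0.5). *mrpl34* had 5.59, 6.17 and 5.71 in *tdp1-/-* embryos and 5.97, 5.95 and 6.39 in *tdp1WT* embryos, and its groups overlapped through *tdp1-/-* replicate 2 (log2 fold change -0.28, exact permutation p = 0.3).

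At the other end stood *mrpl57*, of the mitochondrial lineage, *mrpl30* and *mrpl28*, homologs of bacterial L30 and L28. *mrpl57* had log2 signals of 7.26, 7.29 and 6.70 in *tdp1-/-* embryos and 6.77, 7.18 and 6.57 in *tdp1WT* embryos. It was higher in *tdp1-/-* in all 3 experiments, but replicate 3 of *tdp1-/-* lay below 2 of the *tdp1WT* arrays, and the means of 7.08 ± 0.333 in *tdp1-/-* and 6.84 ± 0.31 in *tdp1WT* embryos (SD, n = 3 each) differed by less than the SD of either genotype (log2 fold change 0.24, 95% interval -0.29 to 0.78). *mrpl30* had 7.84, 8.18 and 7.94 in *tdp1-/-* embryos and 7.57, 8.02 and 7.88 in *tdp1WT* embryos, overlapping groups with a fold change of 0.17. *mrpl28* had 6.78, 6.75 and 6.70 in *tdp1-/-* embryos and 6.52, 6.79 and 6.51 in *tdp1WT* embryos, where replicate 2 of *tdp1WT* was the highest of the 6 arrays and the fold change was 0.13.

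By position in the ribosome, no group of large subunit genes held a called member. The L10-L12 stalk and its base, which recruit and stimulate the translation factors, were represented by *mrpl10*, *mrpl11* and *mrpl12*. All 3 had negative log2 fold changes of -0.09, -0.09 and -0.21, with 0 called. Their median was -0.16, -0.10 and -0.25 in experiments 1, 2 and 3, with 2, 3 and 2 of the 3 genes below 0. *mrpl12*, the stalk protein that binds the factors, had log2 signals of 5.67, 5.86 and 5.44 in *tdp1-/-* embryos and 5.83, 5.96 and 5.83 in *tdp1WT* embryos, overlapping through *tdp1-/-* replicate 2 (exact permutation p = 0.3). The 6 genes assigned here to the polypeptide tunnel and its exit were *mrpl4*, *mrpl22*, *mrpl23*, *mrpl24*, *mrpl45* and *mrpl47*. They ran from -0.12 to 0.07 with 4 below 0. The product of *mrpl45* tethers the mammalian ribosome to the inner membrane. Other large subunit genes were assigned to no region, among them *mrpl17* (0.12), *mrpl27* (0.05) and *mrpl32* (0.08), so these lists are partial. The 5 genes assigned here to the central protuberance, the crown that faces the small subunit, had 3 below 0 and a median of -0.03. *mrpl1*, of the mobile L1 stalk, had 4.62, 4.80 and 4.64 in *tdp1-/-* embryos and 4.70, 4.71 and 5.02 in *tdp1WT* embryos, a fold change of -0.12. Homologs of bacterial proteins numbered 29 with a median of -0.03, and proteins of the mitochondrial lineage 14 with a median of 0.0046, against a median of -0.005 over all genes.

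The fold changes of the brightest and dimmest probe sets of the large subunit lay between -0.12 and 0.06. *mrpl4* had log2 signals of 8.27, 8.43 and 8.24 in *tdp1-/-* embryos and 8.44, 8.45 and 8.30 in *tdp1WT* embryos, and *mrpl43* had 8.55, 8.39 and 8.50 in *tdp1-/-* and 8.33, 8.75 and 8.38 in *tdp1WT* embryos. The lowest mean signal of a member was that of *mrpl41*, with 4.13, 4.62 and 4.72 in *tdp1-/-* embryos and 4.2, 4.47 and 4.60 in *tdp1WT* embryos. All 67 members had a mean of at least 4 log2 units, the limit used for dim probe sets.

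In the small subunit, log2 fold changes ran from -0.23 to 0.26, with 14 of 24 genes below 0. The most negative was *mrps30*, whose product carries a small subunit name but belongs to the large subunit in mammalian structures. Its log2 signal was 6.70, 6.61 and 6.48 in *tdp1-/-* embryos and 6.81, 6.73 and 6.93 in *tdp1WT* embryos. All *tdp1-/-* arrays lay below all *tdp1WT* arrays, which made it the only one of the 67 genes whose groups did not overlap, against 4.08% of all genes with *tdp1-/-* lower and 3.64% with *tdp1-/-* higher. The means were 6.60 ± 0.112 in *tdp1-/-* and 6.83 ± 0.102 in *tdp1WT* embryos (SD, n = 3 each), a fold change of -0.23 log2 units (95% interval -0.56 to 0.10, exact permutation p = 0.1, limma adjusted p = 1).

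*mrps18a*, one of 3 vertebrate copies of bacterial S18 and also placed in the large subunit by structure, had log2 signals of 6.46, 6.13 and 6.02 in *tdp1-/-* embryos and 6.38, 6.30 and 6.42 in *tdp1WT* embryos. Replicate 1 of *tdp1-/-* was the highest of the 6 arrays, and the fold change was -0.16 (exact permutation p = 0.4). *mrps2*, homolog of bacterial S2, had 8.10, 7.78 and 7.70 in *tdp1-/-* embryos and 8.02, 8 and 7.97 in *tdp1WT* embryos, with the same array highest and a fold change of -0.14.

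The highest fold change of all members was that of *mrps18b*, a copy of S18 that structures place in the small subunit. Its log2 signal was 8.22, 8.44 and 8.21 in *tdp1-/-* embryos and 7.84, 8.25 and 8 in *tdp1WT* embryos. It was higher in *tdp1-/-* in all 3 experiments, and only replicate 2 of *tdp1WT* reached the range of the *tdp1-/-* arrays. The means of 8.29 ± 0.13 in *tdp1-/-* and 8.03 ± 0.209 in *tdp1WT* embryos (SD, n = 3 each) differed by 0.26 log2 units (95% interval -0.12 to 0.64, exact permutation p = 0.3). *mrps18a* and *mrps18b*, paralogs, thus had fold changes of opposite sign, and neither passed the test.

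*mrps25* and *mrps33*, proteins of the mitochondrial lineage, followed. *mrps25* had log2 signals of 7.30, 7.78 and 7.40 in *tdp1-/-* embryos and 7.29, 7.40 and 7.23 in *tdp1WT* embryos, a fold change of 0.19 that was largest in experiment 2 (0.38). *mrps33* had 6, 6.56 and 6.07 in *tdp1-/-* embryos and 6.13, 6.30 and 5.70 in *tdp1WT* embryos, a fold change of 0.17. Its differences were -0.12, 0.26 and 0.36 in experiments 1, 2 and 3. Without *tdp1-/-* replicate 2, but with its *tdp1WT* partner, the fold change was -0.01. *mrps12*, homolog of the bacterial decoding centre protein S12 and the dimmest small subunit probe set, had 4.87, 5.03 and 5.26 in *tdp1-/-* embryos and 5.00, 5.10 and 5.14 in *tdp1WT* embryos, groups that overlapped almost wholly (fold change -0.02). The 12 homologs of bacterial small subunit proteins had a median of -0.02, with 8 below 0, and the other 12, which here include *mrps18a* and *mrps18b* besides proteins of the mitochondrial lineage, a median of 0.01, with 6 below 0.

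**Figure D2:**
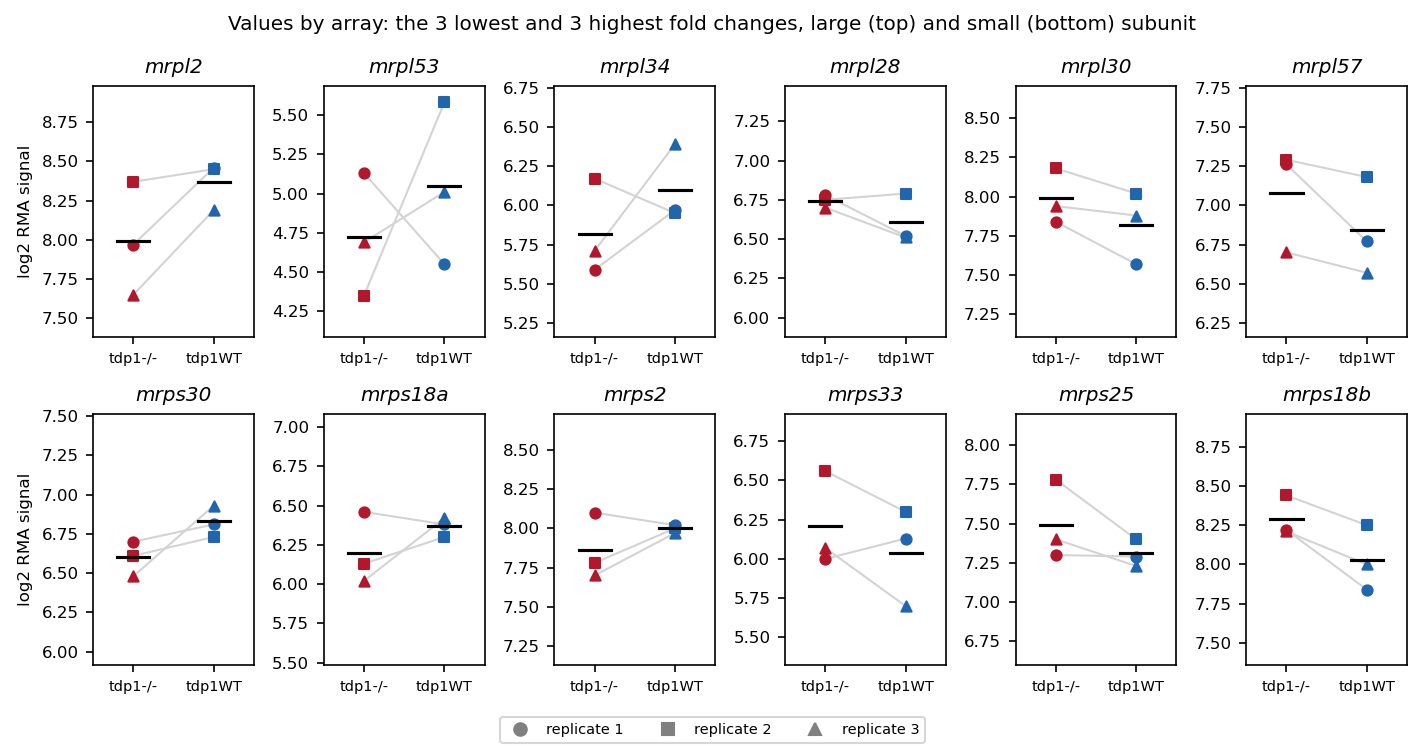
Log2 RMA signal (y axis) by array in *tdp1-/-* (red, left) and *tdp1WT* embryos (blue, right) for the 3 lowest and 3 highest fold changes of the large (top) and small subunit (bottom). Symbols mark the replicate number, grey lines join arrays of the same number, black bars are means (n = 3), and each panel spans the same number of log2 units. Of these 12 genes, *mrps30* has groups that do not overlap.

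Among the 12 genes with the lowest and highest fold changes of both subunits, leaving out 1 array moved the value by over 1.5 times for all except *mrps30*. The same-numbered array of the other genotype stayed in, so a shift between experiments also entered the value. For the large subunit the values then ran from -0.57 to -0.05 for *mrpl53*, -0.45 to -0.14 for *mrpl34*, 0.11 to 0.44 for *mrpl57*, 0.04 to 0.27 for *mrpl30* and 0.08 to 0.22 for *mrpl28*. For the small subunit they ran from -0.29 to -0.07 for *mrps18a*, -0.26 to -0.06 for *mrps2*, 0.04 to 0.28 for *mrps25*, -0.01 to 0.30 for *mrps33* and 0.16 to 0.37 for *mrps18b*.

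Each subunit as a whole stayed near 0. The median log2 fold change was -0.02 (-0.0211) over the large subunit, -0.02 (-0.0189) over the small subunit and -0.005 over all genes with 1 symbol, of which 51.4% were negative. By experiment the large subunit median was -0.05, -0.03 and 0.05 in experiments 1, 2 and 3, and the small subunit median -0.06, -0.01 and 0.01, so that neither subunit kept one direction. The all-gene median was -0.025, 0.008 and 0 in the same experiments. Leaving out *tdp1WT* replicate 2 turned both subunit medians positive, to 0.06 and 0.07, as did leaving out *tdp1-/-* replicate 1 (0.03 and 0.05). Without *tdp1-/-* replicate 3 the small subunit median was 0.01. Such a fit keeps the same-numbered array of the other genotype, so a shift between experiments also enters these medians. Assigning *mrps30* and *mrps18a* to the large subunit, as structures do, gave medians of -0.03 over 45 large and -0.01 over 22 small subunit genes. The median absolute fold change of the members was 0.08, against 0.10 over all genes. The 2 sets were not matched for signal, since mean log2 signals began at 4.46 for members and at 1.36 for all genes.

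Counted by pairs of the same experiment, 10 members were lower in *tdp1-/-* in 3 of 3 experiments, namely *mrpl2*, *mrpl4*, *mrpl9*, *mrpl12*, *mrpl18*, *mrpl37*, *mrpl47*, *mrps5*, *mrps22* and *mrps30*. Over all genes with 1 symbol the share was 16.8%, so the members' share was no higher than the background. Additional clusters of *mrpl47* and *mrps22* did not keep this direction. The 8 members higher in 3 of 3 experiments were *mrpl21*, *mrpl24*, *mrpl30*, *mrpl48*, *mrpl57*, *mrps18b*, *mrps25* and *mrps34*, beside a background of 14.4%. An additional cluster of *mrpl57* was lower in experiment 1 (-0.18). *mrpl37*, a protein of the mitochondrial lineage, had log2 signals of 8.04, 8.39 and 8.16 in *tdp1-/-* embryos and 8.55, 8.45 and 8.28 in *tdp1WT* embryos, overlapping through *tdp1-/-* replicate 2 (fold change -0.23, exact permutation p = 0.2).

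Of the 67 genes, 5 had more than 1 cluster. The choice of cluster mattered for a call in *mrpl57* and for direction in others, among them *mrpl47*. The member cluster of *mrpl57* gave a fold change of 0.24 and its other clusters 0.20 and 0.56. In the last, cluster 13052347, the log2 signal was 5.57, 6.10 and 5.20 in *tdp1-/-* embryos and 4.91, 5.41 and 4.87 in *tdp1WT* embryos. The groups overlapped, but *tdp1-/-* was higher in every experiment, and the 95% interval was -0.05 to 1.17 without the block (exact permutation p = 0.2) and 0.22 to 0.91 with it, where the cluster was called (limma adjusted p = 0.739). The additional clusters of *mrpl20*, *mrpl47*, *mrpl53* and *mrps22* had fold changes of 0.06, 0.21, -0.06 and -0.18 with 0 called. Their member clusters had -0.002, -0.07, -0.32 and -0.11. For *mrpl47* the additional cluster was higher in *tdp1-/-* in every experiment (0.32, 0.01 and 0.29), whereas the member cluster was lower in every one. For *mrps22* the additional cluster differed by 0.49, 0.07 and -1.1 in experiments 1, 2 and 3. The member cluster of *mrps28* and the additional cluster of *mrpl53* each held the same 6 values as a cluster without a symbol.

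The members lay on 22 chromosomes, and 4 were on chromosome 17 with *tdp1* itself. *mrps5* was the nearest, with 120 annotated genes between it and *tdp1*, followed by *mrpl57* with 347, *mrpl33* with 684 and *mrpl35* with 728. *mrps5* had log2 signals of 6.58, 6.73 and 6.92 in *tdp1-/-* embryos and 6.75, 6.77 and 7.03 in *tdp1WT* embryos, lower in each experiment by at most 0.17 log2 units and with overlapping groups. Fold changes of the 4 genes were -0.11 for *mrps5*, 0.24 for *mrpl57*, 0.08 for *mrpl33* and -0.02 for *mrpl35*. No single direction ran through them.

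The rest of the machinery for mitochondrial gene expression was counted from lists of known genes. Subunits named without the *mrp* prefix, such as *dap3*, had 0 of 5 called, assembly factors 0 of 26, translation factors 0 of 15, enzymes of aminoacyl-tRNA synthesis 0 of 17, factors of transcription and RNA processing 0 of 13, import and housekeeping genes 0 of 19 and regulators 0 of 11. Their median log2 fold changes lay between -0.06 for the subunits and 0.04 for transcription and RNA processing. With the experiment as a block 1 of these genes was called, *mtrf1l*, a release factor for mitochondrial translation, with a fold change of 0.33. Of all genes with 1 symbol, 1.04% were called lower and 0.852% higher without the block, and 2.49% and 1.55% with it. Cytosolic ribosomal proteins had 0 of 67 called and a median of 0.02, with 23 below 0. Their median was -0.05, 0.06 and 0.07 in experiments 1, 2 and 3, with 45, 16 and 17 below 0, so this list did not keep one direction. The median over all genes was -0.025, 0.008 and 0 in the same experiments, with 10643, 9351 and 9622 of 19260 below 0. The list for oxidative phosphorylation, matched by symbol, held 93 nuclear-encoded genes, not all of them subunits. Of these 1 was called, *ndufa9b*, at log2 signals of 1.78, 2.07 and 2.53 in *tdp1-/-* embryos and 1.44, 1.5 and 1.65 in *tdp1WT* embryos, all under the limit for dim probe sets. With the block a second was called, *sdhaf1*, an assembly factor of complex II (fold change 0.32). The median over that list was 0.01. Of 8 listed markers of proliferation 5 were measured, all below 0 in *tdp1-/-* embryos (median -0.25). So were the 3 of erythrocytes (-0.16) and the 4 of heart (-0.17), against 51.4% of all genes. In experiment 1 alone, 2 of the 4 heart markers were below 0. Of the other markers, 4 of 5 of neurons, 2 of 5 each of skeletal muscle and lens, 2 of 4 of exocrine pancreas and 0 of 2 of liver were below 0. Of all these markers *cdk1*, the mitotic kinase, was called lower (fold change -0.58), as was *alas2*, which starts haem synthesis in erythrocytes (-0.47). *cdk1* lies on chromosome 17, as *tdp1* does, and a link to that position was not tested. With the block *alas2* was not called, whereas *mcm3*, of the replicative helicase, was called lower (-0.34) and *serpina1*, a plasma protein gene of the liver, higher (0.53).

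**Figure D3:**
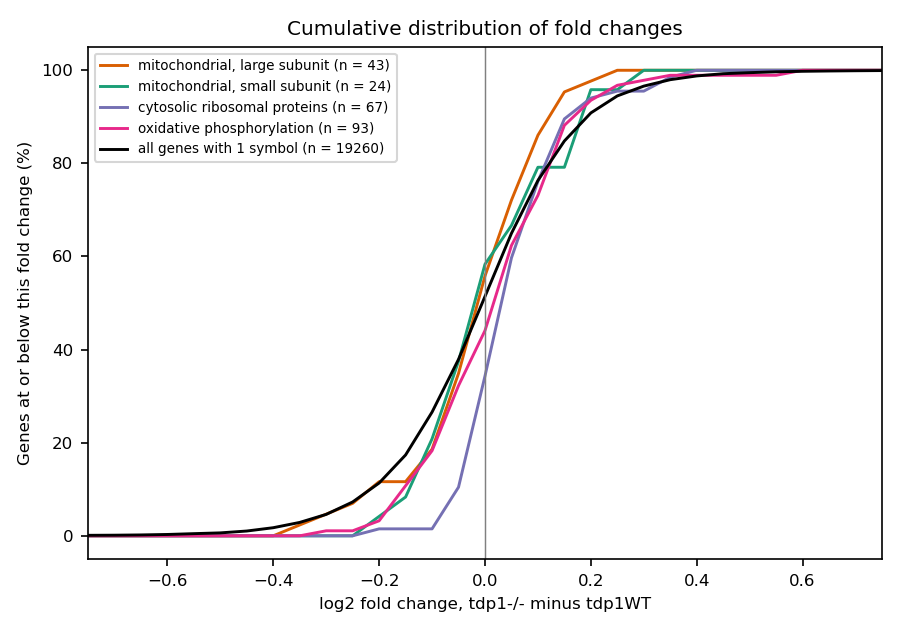
Share of genes (%, y axis) at or below each log2 fold change (*tdp1-/-* minus *tdp1WT*, x axis) for 43 large and 24 small subunit genes, 67 cytosolic ribosomal proteins, 93 nuclear-encoded oxidative phosphorylation genes and 19260 genes with 1 symbol. The curves of both mitochondrial subunits cross 0 near the all-gene curve (51.4% negative), and that of the cytosolic ribosomal proteins lies to the right of it below 0 (34.3% negative). In experiment 1 alone, 45 of these 67 cytosolic genes were negative, against 10643 of all 19260 genes.

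The members also shifted together between experiments, a pattern looked at after the values had been seen. In experiment 2, 57 of 67 members (38 of 43 large and 19 of 24 small subunit genes) were above their mean in the other experiments, against 41.3% of all genes, with a median difference of 0.16 log2 units for members and -0.05 for all genes. In experiments 1 and 3, 13 and 23 of 67 were above their mean in the others, with medians of -0.11 and -0.06, against 9401 and 11697 of 19260 genes, with medians of -0.007 and 0.06. In experiment 3 the members thus stood on the opposite side from the median gene. Each experiment was set against the mean of the others, so a gene's differences cancel over the experiments. The low values in experiments 1 and 3 therefore follow in part from the high ones in experiment 2. Both genotypes contributed to the rise in experiment 2. On its arrays, 44 of 67 members in *tdp1-/-* and 58 of 67 in *tdp1WT* embryos were above their own mean over the 6 arrays. On the other arrays the numbers were 16 and 32 of 67 for *tdp1-/-* replicates 1 and 3, and 23 and 28 of 67 for *tdp1WT* replicates 1 and 3. The members' median log2 signal was 6.77, 6.99 and 6.84 in *tdp1-/-* embryos and 6.77, 6.96 and 6.90 in *tdp1WT* embryos, while that of all genes was 6.32, 6.25 and 6.33 in *tdp1-/-* and 6.35, 6.26 and 6.34 in *tdp1WT* embryos.

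Gene by gene, most members did not pass a test of the experiment. An F test of the experiment in the blocked limma fit gave an unadjusted p under 0.05 for 5 members, *mrpl9*, *mrpl24*, *mrpl41*, *mrpl57* and *mrps23*, against 11.5% of all genes, with limma adjusted p between 0.34 and 0.345. Of these, *mrps23*, of the mitochondrial lineage, stood furthest up in experiment 2, with log2 signals of 5.15, 5.84 and 5.37 in *tdp1-/-* embryos and 5.25, 5.65 and 5.36 in *tdp1WT* embryos. Replicate 2 was the highest array of each genotype, 0.46 log2 units above the other experiments. *mrpl24* and *mrpl57* also had replicate 2 highest in each genotype, with replicate 3 lowest, and *mrpl41* had replicate 1 lowest in each.

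Other gene lists differed in how they stood in experiment 2. Its arrays were higher for 55 of 67 cytosolic ribosomal proteins (median 0.11), 76 of 93 oxidative phosphorylation genes (0.09), 20 of 26 mitoribosome assembly factors (0.16) and 4 of 4 markers of exocrine pancreas (0.34), and higher for 1 of 5 markers of proliferation (-0.23), 1 of 4 of heart (-0.16) and 0 of 3 of erythrocytes (-0.25). Most genes were also higher among mitoribosome subunits under other names (4 of 5, median 0.13), import and housekeeping (14 of 19, 0.11) and mitochondrial transcription and RNA processing (9 of 13, 0.10). Mitochondrial translation factors (8 of 15, median 0.09), aminoacyl-tRNA synthesis (10 of 17, 0.01) and regulators (5 of 11, -0.02) were nearer to an even split. Markers of skeletal muscle, neurons and lens were higher for 2 of 5 each and those of liver for 1 of 2, beside 41.3% of all genes. The part of tissue composition and of RNA or array handling in the members' shift was not tested.

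**Figure D4:**
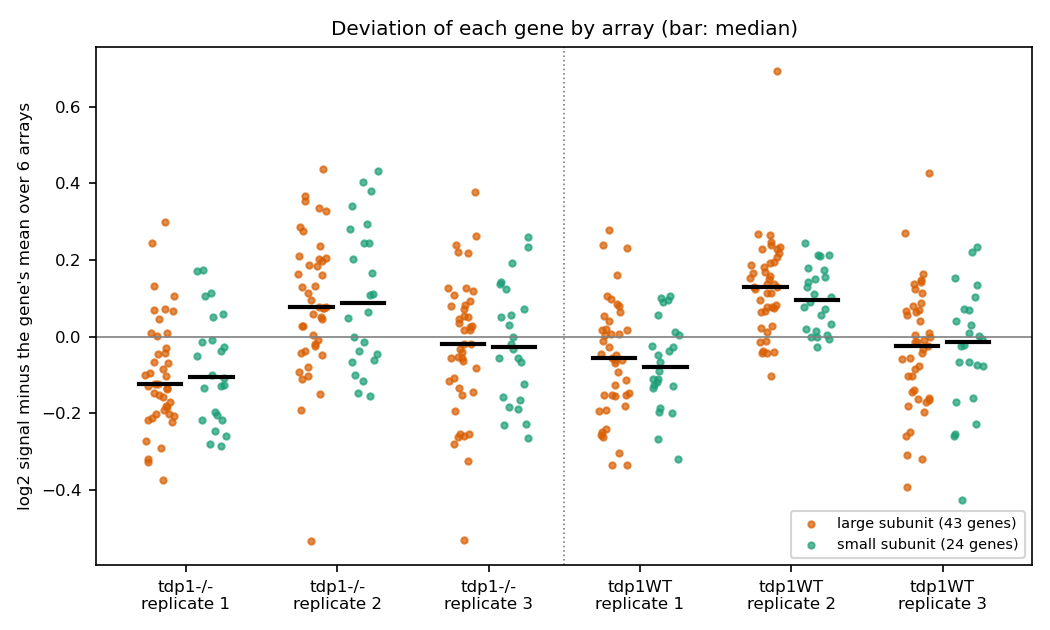
Log2 signal of each gene minus its mean over the 6 arrays (y axis), by array, with *tdp1-/-* arrays left and *tdp1WT* arrays right, for large (orange) and small subunit genes (green). Bars are medians. The replicate 2 arrays of both genotypes have medians above 0, with 44 of 67 genes above 0 in *tdp1-/-* and 58 of 67 in *tdp1WT* embryos.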

How the data were processed

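Total RNA (200 ng) from whole embryos was labelled with the Affymetrix WT Plus protocol and hybridised to 6 arrays. The deposited table holds log2 values that the authors made with RMA (background correction, quantile normalization, probe summary), and they were used as given. RMA draws the probe values of all arrays to one distribution before the summary, so a shift shared by all genes would be largely removed. The summarized values still differed between arrays, with medians from 4.66 to 4.87 log2 units. Gene names came from the platform annotation and were matched by Entrez ID to RefSeq for 67 of 67 members. Of 75212 clusters, 20806 had 1 symbol, 855 several and 53551 none. limma 3.58.1 in R 4.3.3 was fitted to all clusters with 3 arrays per genotype. The number of arrays limits the precision. The study's methods give the fold threshold of 1.2, and Benjamini-Hochberg adjustment ran over all clusters. Deviations of same-numbered arrays from the genotype means correlated (0.203, 0.216 and 0.29 for replicates 1 to 3), so the numbers were taken to pair the arrays, and the replicate number was also fitted as a block.

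Values were given array by array for the 3 highest and 3 lowest fold changes of each subunit, the brightest and dimmest members, those on the chromosome of *tdp1* or with several clusters by range, and other members after their values had been seen. Members and lists were chosen with earlier results of these data known. The alternatives were further quantile normalization, median centring, array weights, an intensity trend, a filter on dim clusters, the mean over a gene's clusters, subunits by structure, and leaving out each array.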

Additional observations from a re-analysis of the deposited data

How the results depend on the processing

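The members called stayed at 0 in each direction under every alternative run, except that 1 large subunit gene, *mrpl2*, was called lower without *tdp1-/-* replicate 2, so leaving out an array gave 0 to 1. The fit without the block called 2688 of all clusters, and the number was 4830 with the replicate block, 1630 among clusters with a mean of at least 4, and 1881 to 5004 with an array left out, the highest without *tdp1-/-* replicate 1. Leaving out an array moved the large subunit median between -0.06 (-0.0584) and 0.06 (0.0615) and the small subunit median between -0.07 (-0.0713) and 0.07 (0.0697). The same-numbered array of the other genotype stayed in, so a shift between experiments also entered all values with an array left out. The members' median difference in experiment 2 was 0.1762 after median centring, against 0.1565 without it. Of the 21 members followed through 13 alternatives (273 values), 257 values kept direction and call and 15, from 7 genes, changed sign. The block, the intensity trend and the filter on dim clusters leave a log2 fold change as it is. Under these alternatives only the call could change. The mean over a gene's clusters could move only genes with several clusters. With array weights *mrpl43* was 0.0055 and *mrps12* 0.0019. With an array left out the log2 fold change ran from -0.1292 to 0.0695 for *mrps12*, -0.0861 to 0.1257 for *mrpl43*, -0.157 to 0.1862 for *mrps23*, -0.0059 to 0.2952 for *mrps33*, -0.0931 to 0.2086 for *mrpl33*, -0.0824 to 0.0989 for *mrpl35* and -0.0502 to 0.2432 for *mrpl41*. The replicate block changed no member's call, and of the additional clusters it added the call of 1, that of *mrpl57*. The cause of these changes was not tested. With 3 arrays per genotype, intervals of a typical member reached 0.38 log2 units to either side.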
